A study of Teleogryllus oceanicus with 18 samples.

Results

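The response of *Teleogryllus oceanicus* field crickets to larvae of the parasitoid fly *Ormia ochracea* was compared between the populations of Kauai and Mangaia, 7 days after infestation. The contrast was the response of Kauai (day 7 minus uninfested) minus the response of Mangaia (day 7 minus uninfested), called the interaction here, and it used 12 of the 18 RNA-seq libraries of the series. These were 3 libraries each of Kauai crickets at day 7, uninfested Kauai crickets, Mangaia crickets at day 7 and uninfested Mangaia crickets. The 6 libraries of day 4 entered the fit, where they add to the estimate of the spread, and their levels were set beside the contrast. For every gene the interaction equals the difference between Kauai and Mangaia at day 7 minus the same difference in uninfested crickets, so its size splits into a day 7 part and an uninfested part.

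All crickets were sexually mature adult males of laboratory colonies. The Kauai colony received offspring of wild females about once a year and the Mangaia colony did not. Each library pooled the RNA of 2 males, with 1 flatwing and 1 normal-wing male in a Kauai pool and normal-wing males alone in a Mangaia pool, so wing morph and population cannot be told apart in any difference between them. Larvae taken from wild Californian flies were placed on the crickets by hand, and they were dissected out before RNA extraction. The head, digestive tract, pronotum, wings and legs of the cricket were removed too. The study excluded crickets of both populations whose larvae had emerged before sampling at day 7. Uninfested crickets were other males, handled in the same way without larvae, and are no earlier time point of the infested ones. The 12 libraries stand for 24 crickets, and the p-values measure the spread between pools.

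A parasitoid larva feeds inside the living host, which it kills as it emerges. Insects meet such an invader with receptors that recognise foreign surfaces, with signalling such as the Toll pathway, and with phenoloxidases, the enzymes that form the melanin of a capsule. Crickets of Kauai live with the fly and those of Mangaia do not. A gene can differ in its response between populations because its level differed in uninfested crickets, because it reached another level by day 7, or through a share of each.

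Each library held 6266925 to 8023588 read pairs in genes. The day 7 libraries least like their own groups were Kauai library 1 and Mangaia library 2, and results are given with and without them. Kauai library 1 had a mean correlation with its group of 0.940, beside 0.949 and 0.946, so it stood little apart. Mangaia library 2 had 0.902, beside 0.923 and 0.933. The 10 most abundant genes took 14.2% to 15.1% of the read pairs in Kauai at day 7, against 20.2% to 24.0% in uninfested Kauai crickets, and 15.7% to 17.3% in Mangaia at day 7, against 15.7% to 17.5% in uninfested Mangaia crickets. Read pairs that mapped to several places were 6.57% to 8.28% of a library in Kauai at day 7, against 10.9% to 12.0% in uninfested Kauai crickets, and 8.52% to 11.2% in Mangaia at day 7, against 10.1% to 12.3% in uninfested Mangaia crickets. These shares moved with the groups, and their part in the interaction was not tested. Such pairs entered no gene's count, which lowers the counts of genes with near-identical copies. Names were at hand only for 53 genes of the study's immune list, where they come from similar proteins in other species, and markers of tissues or cell types were not checked. In RNA of the remaining body with its mixed tissues, fewer cells of a type and less RNA per cell cannot be told apart.

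The response of 576 genes at day 7 differed between the populations, which is 2.43% of the 23748 genes tested (edgeR's quasi-likelihood test, Benjamini-Hochberg FDR of 0.05). The count fell to 0 when any one of 7 libraries was left out. Of these 576, 294 genes (1.24% of those tested) changed more upward in Kauai and 282 (1.19%) changed more downward in Kauai. The absolute interaction of the called genes ranged from 0.81 to 7.69 on the log2 scale with a median of 1.54, beside a median of 0.71 over all genes tested, and it was over 2-fold for 542 genes. The genes that moved more upward in Kauai had a median interaction of 1.86 and a median expression of 10.5 CPM (read pairs scaled by library size and TMM factor), and those that moved more downward had a median interaction of -1.32 and a median expression of 59.9 CPM.

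Both population differences ran in opposite directions in most of the called genes, as the plot of one difference against the other shows. For the genes more upward in Kauai, the median difference between Kauai and Mangaia was 0.97 at day 7 and -0.88 in uninfested crickets, on the log2 scale. For the genes more downward in Kauai, it was -0.87 at day 7 and 0.45 in uninfested crickets. The differences had opposite signs in 564 of the 576 genes (97.9%), against 55.3% of all genes tested. The called genes were chosen by the gap between these differences, which favours opposite signs, so the values describe the genes and do not test them.

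**Figure D1:**
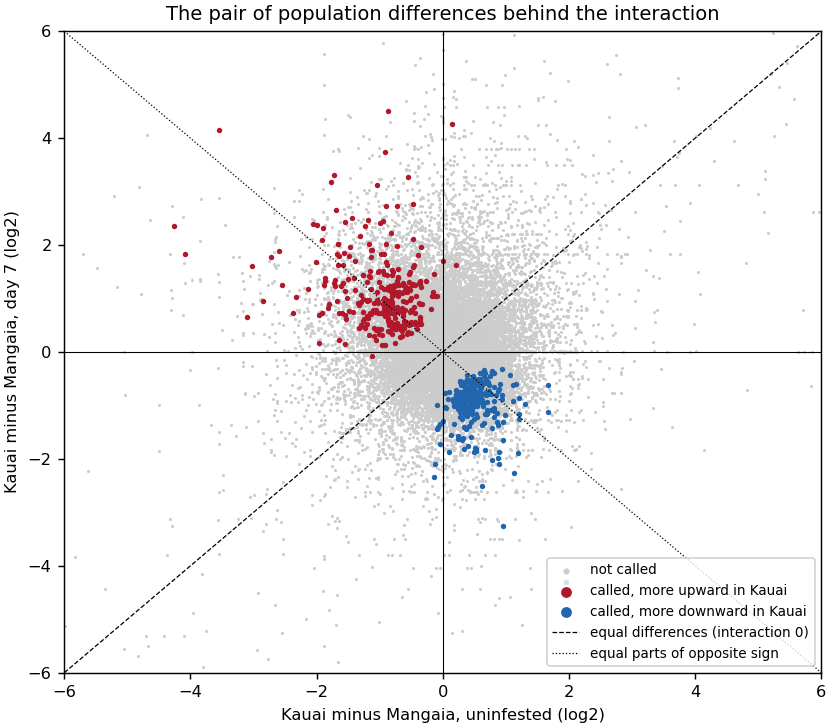
Each point is a gene, with the Kauai minus Mangaia difference in uninfested crickets on the x axis and the same difference at day 7 on the y axis, both in log2 units between -6 and 6, which leaves out 68 genes, 1 of them called. The genes called as more upward in Kauai (red) lie around a median of -0.88 uninfested and 0.97 at day 7, and those called as more downward (blue) around 0.45 uninfested and -0.87 at day 7.

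The day 7 part was the larger of the pair in 407 of the 576 genes (70.7%), against 57.2% of all genes tested. This share depended on the direction. Day 7 levels made the larger part in 245 of the 282 genes more downward in Kauai (86.9%) and in 162 of the 294 genes more upward in Kauai (55.1%). Signed along the interaction, the median day 7 part was 0.87 and the median uninfested part 0.45 for the genes more downward in Kauai. For the genes more upward in Kauai they were 0.97 and 0.88. The order of that pair turned without uninfested Kauai library 1 (0.95 at day 7 and 1.00 uninfested) and without both day 7 libraries least like their groups (0.90 and 0.91), and without uninfested Kauai library 3 the parts were 0.95 and 0.71.

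A gene was put down mainly to day 7 where the day 7 difference was over 2 times the uninfested one, mainly to uninfested levels where the reverse held, and to both otherwise. By this rule, 178 genes (30.9%) came mainly from day 7, 49 (8.51%) mainly from uninfested levels and 349 (60.6%) from both, against 34.7%, 23.8% and 41.4% of all genes tested. The shares depend on the ratio, with 49.1% mainly from day 7 and 14.1% mainly from uninfested levels at a ratio of 1.5, and 17.4% and 2.43% at a ratio of 3. Over the 11 left-out libraries that gave calls they ran from 3.85% to 100% and from 0% to 15.4%. Among the genes more upward in Kauai, 47 came mainly from day 7, 42 mainly from uninfested levels and 205 from both. Among the genes more downward in Kauai, 131 came mainly from day 7, 7 mainly from uninfested levels and 144 from both.

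With all libraries in the fit, more genes were called for the day 7 difference than for the uninfested one, and the order turned to 5 at day 7 and 241 in uninfested crickets without both day 7 libraries least like their groups. Kauai and Mangaia differed at day 7 in 839 genes (3.53% of those tested, with 366 higher and 473 lower in Kauai, which are 1.54% and 1.99%) and in uninfested crickets in 10 genes (0.0421%, with 3 higher and 7 lower in Kauai, which are 0.0126% and 0.0295%), with 5570 and 3539 genes at an unadjusted p under 0.05. Of the 576 genes, 289 were called at day 7 and not in uninfested crickets, 4 in uninfested crickets and not at day 7, 0 in both and 283 in neither. The 289 genes divided into 102 more upward and 187 more downward in Kauai, and all 4 genes called in uninfested crickets were more upward in Kauai. The median standard error was 0.45 for the day 7 difference and 0.46 for the uninfested difference. The fit shares a gene's spread over all groups, so near-equal errors follow from the model and do not compare the stages. Mean correlations with the own group were 0.940 to 0.949 in Kauai and 0.902 to 0.933 in Mangaia at day 7. In uninfested crickets they were 0.951 to 0.957 in Kauai and 0.961 to 0.964 in Mangaia. The count of 10 genes in uninfested crickets was 513 by edgeR's likelihood ratio test, 656 by DESeq2 and 374 with library size alone, and 0 when only the 12 libraries were fitted, where 3439 genes had an unadjusted p under 0.05. The count of 839 genes at day 7 was 18 or 40 when library 1 or 3 of Kauai at day 7 was left out, 237, 539 or 282 when library 1, 2 or 3 of Mangaia at day 7 was, 536 without uninfested Mangaia library 1, 520 and 1278 without Kauai day 4 library 1 and 2, and 462 without Mangaia day 4 library 3.

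Overlap between single libraries was read from the values that chose the 576 genes, so it is a description and a share above that of all genes follows from the choice. The 3 Kauai libraries did not overlap with the 3 Mangaia libraries at day 7 in 539 of the 576 genes (93.6%), against 26.8% of all genes tested. In uninfested crickets they did not overlap in 432 genes (75.0%), against 26.7%. Both stages were free of overlap in 395 genes (68.6%), against 7.07% of all genes tested. Day 7 alone was free of it in 144 genes and the uninfested stage alone in 37, against 4685 and 4662 of the 23748 genes tested. No called gene overlapped at both stages, against 12723 of the genes tested.

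The group whose mean stood farthest from the median of the other 3 groups also differed with the direction. The genes were chosen by the interaction of these same groups, which favours the sides found, so the counts are a description. Of the genes more upward in Kauai, 142 had Kauai at day 7 as the outlying group, on the high side, and 124 had uninfested Kauai crickets as the outlying group, on the low side. A Mangaia group was outlying in the remaining 28 genes. Of the genes more downward in Kauai, Kauai at day 7 was outlying and low in 191, Mangaia at day 7 was outlying and high in 57, uninfested Kauai crickets were outlying and high in 25, and uninfested Mangaia crickets were outlying and low in 9. Of the 576 genes, Kauai at day 7 was high in 24.7% and low in 33.2%, against 17.4% and 11.5% of all genes tested. Uninfested Kauai crickets were low in 21.5% and high in 4.34%, against 16.3% and 17.7%. Mangaia at day 7 was high in 9.90% and low in 3.82%, against 13.2% and 12.6%. Uninfested Mangaia crickets were low in 1.56% and high in 1.04%, against 5.33% and 5.92%.

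Set out as responses, the called genes passed the test more often in Kauai than in Mangaia. The genes more upward in Kauai had a median response of 1.69 in Kauai and -0.19 in Mangaia on the log2 scale, and 273 of the 294 passed the test in Kauai and 51 in Mangaia. The genes more downward in Kauai had a median response of -0.89 in Kauai and 0.41 in Mangaia, and 246 of the 282 passed in Kauai and 93 in Mangaia. Over all genes tested, 51.3% passed in Kauai and 31.4% in Mangaia. The absolute response was larger in Kauai for 485 of the 576 genes (84.2%), against 63.0% of all genes tested.

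Library by library, the genes more upward in Kauai had median deviations from their mean of 0.98, 0.66 and 0.87 in the Kauai libraries of day 7, against -0.52, -0.73 and -1.06 in those of uninfested Kauai crickets. In Mangaia the deviations were -0.15, -0.16 and 0.03 at day 7, against -0.04, 0.12 and 0.17 in uninfested crickets. The genes more downward in Kauai deviated by -0.70, -0.42 and -0.56 in Kauai at day 7, against 0.22, 0.28 and 0.53 in uninfested Kauai crickets, and by 0.31, 0.27 and 0.33 in Mangaia at day 7, against -0.11, -0.02 and -0.13 in uninfested Mangaia crickets. In both lists all 3 libraries of a Kauai group lay on the same side of 0, which follows in part from the choice of the genes in these same libraries. Over all genes tested, the median deviation of these libraries lay between -0.11 and 0.11.

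**Figure D2:**
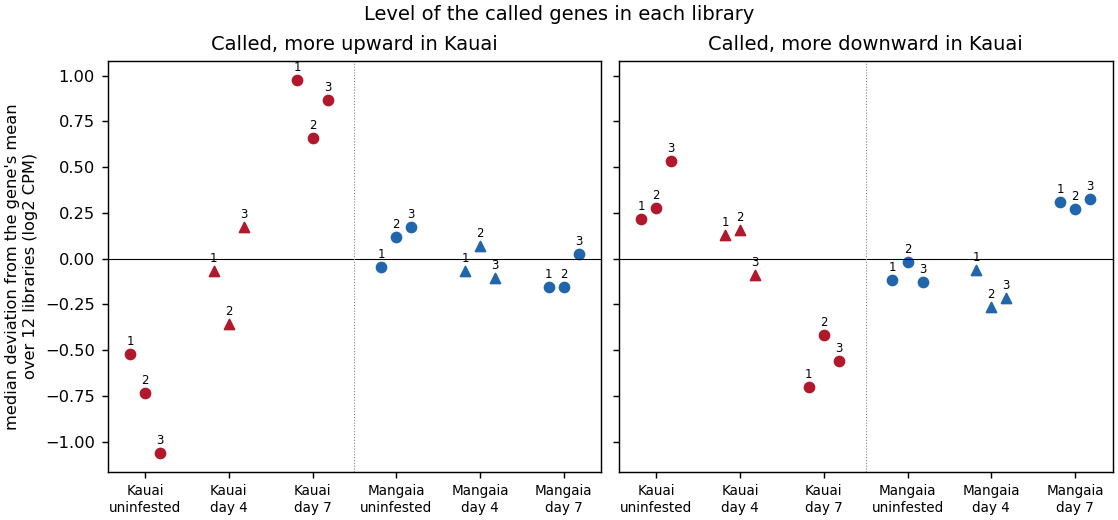
Points are libraries (numbers give the library within its group) and the y axis is the median over the called genes of the log2 CPM minus the gene's mean over the 12 libraries of the contrast, with 294 genes at the left and 282 at the right, red for Kauai and blue for Mangaia. Triangles are the day 4 libraries, which the contrast did not use, and in both panels the Kauai day 4 libraries lie between the uninfested and the day 7 libraries of Kauai.

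At day 4 the called genes differed less between the populations than at the other stages. Their median absolute difference was 0.65 in uninfested crickets, 0.21 at day 4 and 0.91 at day 7, against 0.41, 0.30 and 0.51 over all genes tested, and the called genes were chosen for the first and the last of these. The signed median difference between Kauai and Mangaia in the genes more upward in Kauai was -0.88 in uninfested crickets, -0.02 at day 4 and 0.97 at day 7. In the genes more downward in Kauai it was 0.45 in uninfested crickets, 0.14 at day 4 and -0.87 at day 7. The difference at day 4 passed the test in 4 of the 576 genes (0.694%), against 0.152% of all genes tested (72 by the likelihood ratio test and 124 by DESeq2, each among the genes that tool called in the interaction). It lay between the uninfested and the day 7 difference in 474 genes (82.3%), against 45.3% of all genes. The gap between these differences is wide in called genes and holds 0 in most of them, so a share above that of all genes follows in part from the choice.

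Of the 4 genes that differed in uninfested crickets and not at day 7, MSTRG.9243, a gene with no name in the immune list, was the one with the largest interaction. It had 1162, 468 and 820 CPM in Kauai at day 7, against 142, 82.9 and 122 CPM in uninfested Kauai crickets. Mangaia crickets had 441, 577 and 460 CPM at day 7, against 525, 588 and 681 CPM uninfested. The uninfested Kauai libraries were below all other libraries of the contrast, and the day 7 libraries of the populations overlapped. At day 4, outside the contrast, Kauai had 209, 104 and 286 CPM and Mangaia had 202, 200 and 292 CPM. Kauai library 2 of day 4 thus lay within the range of uninfested Kauai crickets. The Mangaia libraries of day 4 lay below those of Mangaia at the other stages. The difference between Kauai and Mangaia was 0.73 at day 7 (SE 0.352, adjusted p = 0.224) and -2.37 in uninfested crickets (SE 0.369, adjusted p = 0.0381), and the interaction was 3.10 (SE 0.507, adjusted p = 0.0335), by edgeR's quasi-likelihood test. The other 3 genes had interactions of 1.06 to 2.14, with differences of -0.07 to 0.51 at day 7 and of -1.97 to -1.13 in uninfested crickets.

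MSTRG.1967, also without a name, had the largest upward interaction of the 45 genes of at least 10 CPM that were called at day 7 and not in uninfested crickets. It had 205.4, 204.8 and 169.8 CPM in Kauai at day 7, against 8.97, 6.37 and 2.73 CPM in uninfested Kauai crickets. In Mangaia it had 34.9, 28.1 and 53.1 CPM at day 7, against 17.0, 22.6 and 27.5 CPM uninfested. The populations did not overlap at either stage, with Kauai above Mangaia at day 7 and below it in uninfested crickets. The interaction was 4.21 (SE 0.68, adjusted p = 0.0335 by edgeR's quasi-likelihood test), made of a day 7 difference of 2.32 (SE 0.473, adjusted p = 0.0245) and an uninfested difference of -1.89 (SE 0.49, adjusted p = 0.121). A call at day 7 alone thus went with an uninfested part of almost the same size. The interactions of MSTRG.9243 and MSTRG.1967 were not called without Kauai day 7 library 1 or 3, uninfested Kauai library 2 or 3, Mangaia day 7 library 1, uninfested Mangaia library 2 or 3, or Kauai day 4 library 1, with adjusted p of up to 0.0848.

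MSTRG.14947, unnamed as well, had the largest downward interaction among 163 such genes. It had 139.2, 187.1 and 96.9 CPM in Kauai at day 7, against 779.0, 899.2 and 674.3 CPM in uninfested Kauai crickets, and 604.3, 287.4 and 1507 CPM in Mangaia at day 7, against 470.7, 430.9 and 628.3 CPM in uninfested Mangaia crickets. The Kauai libraries of day 7 lay below all others of the contrast, while the Mangaia libraries of day 7 spread over a wide range. At day 4, outside the contrast, Kauai had 691.5, 1032.5 and 277.4 CPM and Mangaia had 282.1, 144.85 and 318.9 CPM. Mangaia library 2 of day 4 thus lay within the range of Kauai at day 7. The interaction was -3.12 (SE 0.746, adjusted p = 0.0447 by edgeR's quasi-likelihood test), with a difference of -2.50 at day 7 (SE 0.545, adjusted p = 0.0291) and of 0.62 in uninfested crickets (SE 0.517, adjusted p = 0.592). In 13 of the 18 fits with 1 library left out it was not called, with adjusted p of up to 0.106 and an interaction of -3.57 to -2.33, and the 5 fits that kept the call were those without uninfested Kauai library 1, Mangaia day 7 library 2, Kauai day 4 library 2 or 3, or Mangaia day 4 library 2. By limma voom its adjusted p was 0.0503. No gene of at least 10 CPM that moved more downward in Kauai was called in uninfested crickets and not at day 7.

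**Figure D3:**
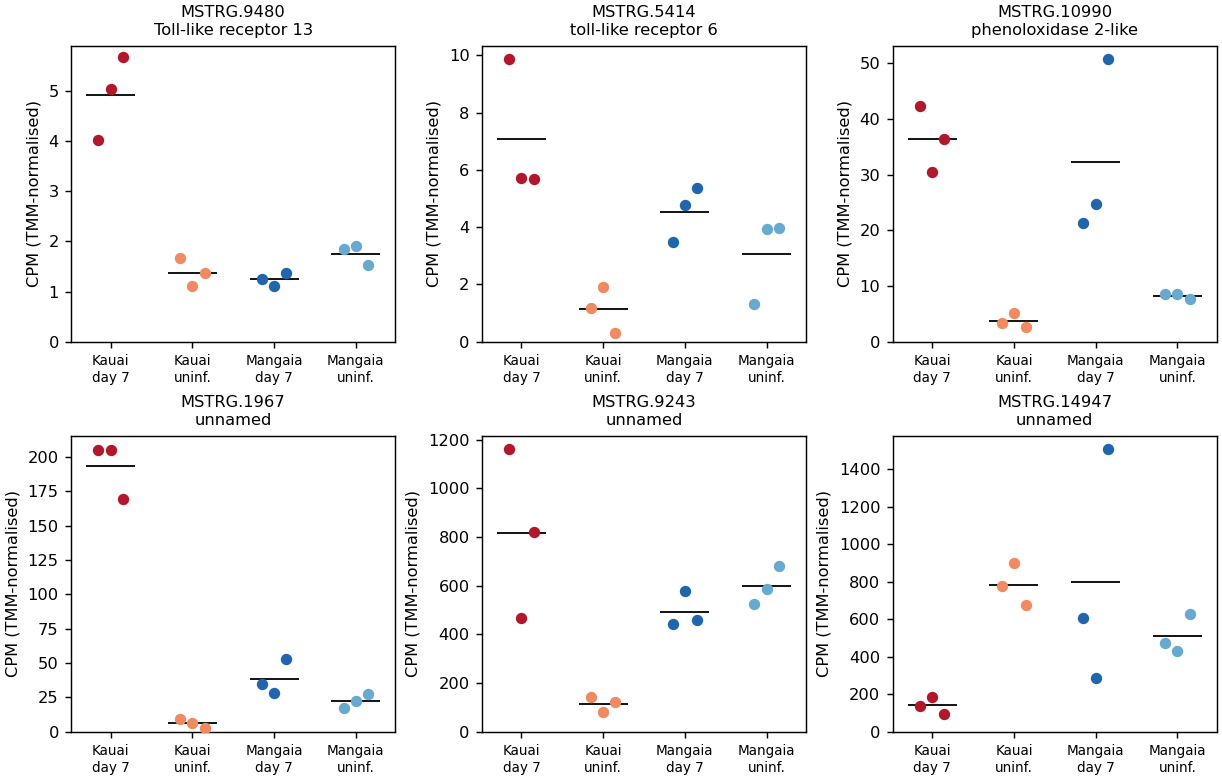
CPM of 6 genes in the 12 libraries of the contrast (points) with group means (lines), for 3 genes of the immune list in the upper row and 3 unnamed genes below. MSTRG.9480 stands apart in Kauai at day 7, where it averaged 4.91 CPM, while MSTRG.9243 stands apart in uninfested Kauai crickets, where it averaged 115.5 CPM.

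Among the 53 genes of the immune list, which the study chose on these samples, 36 rose and 9 fell in Kauai by the test of the response. Responding genes were thus common in the list, so shares over all genes are a description and no test. In the interaction 1 gene was called by the quasi-likelihood test, beside 2.43% of all genes tested. An unadjusted p under 0.05 was found for 16 genes, beside 21.4% of all genes tested. The 16 genes divided into 12 more upward and 4 more downward in Kauai, beside 13.1% and 8.37% of all genes tested. The list had 8 calls by the likelihood ratio test, 7 by DESeq2, 1 by limma voom, 1 with RLE size factors and 10 with library size alone. Beside these stood 1711, 2131, 701, 758 and 1947 calls among all 23748 genes tested. Over the whole list the interaction was positive in 34 of 53 genes, against 51.7% of all genes tested, in 32 with RLE size factors and in 42 with library size alone. The median interaction of the list was 0.43, beside 0.05 over all genes tested. Differences between the populations were called for 2 genes of the list at day 7, beside 3.53% of all genes tested. At that stage 11 genes had an unadjusted p under 0.05, beside 23.5% of all genes tested. In uninfested crickets 16 genes had an unadjusted p under 0.05, beside 14.9% of all genes tested, and the lowest adjusted p was 0.0811 (edgeR's quasi-likelihood test). Of the 53 genes, 15 came mainly from day 7, 15 mainly from uninfested levels and 23 from both, against 34.7%, 23.8% and 41.4% of all genes tested.

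Toll-like receptor 13 (MSTRG.9480), named for a receptor that recognises microbial RNA in mice, was the gene of the list that passed. It had 29, 38 and 43 read pairs (4.03, 5.04 and 5.68 CPM) in Kauai at day 7, against 10, 7 and 9 read pairs (1.66, 1.12 and 1.36 CPM) in uninfested Kauai crickets. In Mangaia it had 1.25, 1.11 and 1.37 CPM at day 7, against 1.84, 1.91 and 1.53 CPM uninfested. Kauai at day 7 was the high group and the other 3 groups lay between 1.11 and 1.91 CPM. The interaction of 2.32 (adjusted p = 0.0378 by edgeR's quasi-likelihood test) was mainly a day 7 difference of 1.97 (SE 0.313, adjusted p = 0.0153), and the uninfested difference was -0.35 (SE 0.335, adjusted p = 0.654). At day 4, outside the contrast, Kauai had 4.40, 4.34 and 2.87 CPM and Mangaia had 0.611, 1.52 and 0.943 CPM, so the populations did not overlap at that stage either. Over the 18 fits with 1 library left out the interaction stayed between 2.19 and 2.52, with adjusted p of 0.0298 to 0.0911. It was not called in 9 of them, which left out Kauai day 7 library 1 or 3, uninfested Kauai library 2 or 3, Mangaia day 7 library 1, any uninfested Mangaia library or Kauai day 4 library 1.

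The other Toll-like receptors were not called in the interaction by the quasi-likelihood test. Beside receptor 13, toll-like receptor 6 was called by the likelihood ratio test, DESeq2 and with library size alone, and toll-like receptor 2 by the likelihood ratio test. The interaction was positive in 6 of the 7 receptors, beside 51.7% of all genes tested, and its median was 1.43 over the 4 receptors with more than 3 read pairs in every group. Kauai was above Mangaia at day 7 in all 7 and below it in uninfested crickets in 5. All 7 passed the test of the response in Kauai, where they rose, and 4 rose in Mangaia. In the whole list 36 and 21 of the 53 genes rose, beside 25.1% and 12.6% of all genes tested. The list held mostly responding genes, so this is no test of the receptors. Toll-like receptor 6 (MSTRG.5414) had 9.86, 5.70 and 5.68 CPM in Kauai at day 7, against 1.16, 1.91 and 0.303 CPM in uninfested Kauai crickets, and 3.46, 4.79 and 5.35 CPM in Mangaia at day 7, against 1.32, 3.95 and 3.97 CPM uninfested. Its interaction of 2.08 (SE 0.659, adjusted p = 0.0921 by edgeR's quasi-likelihood test) came mainly from uninfested crickets, with a difference of -1.44 there and of 0.64 at day 7, though the uninfested libraries overlapped. Toll-like receptor 2 (MSTRG.22165) rested on few reads, with 8, 6 and 10 read pairs in Kauai at day 7, against 0 in each of the 3 uninfested Kauai libraries, and 0, 0 and 3 in Mangaia at day 7, against 5, 0 and 0 uninfested (interaction adjusted p = 0.105). A second gene named for receptor 13, TOG006794, was the member with a negative interaction (adjusted p = 0.674), and it had 6, 11 and 8 read pairs in Kauai at day 7, against 1, 1 and 2 in uninfested Kauai crickets, and 3, 4 and 6 in Mangaia at day 7, against 0, 1 and 0 uninfested.

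Phenoloxidases were divided. The interaction was positive in 4 of the 7 genes, and in 6 with library size alone. Kauai was below Mangaia in uninfested crickets in 5, and at day 7 it was higher in 2. In phenoloxidase 2-like MSTRG.10990 the levels were 42.3, 30.5 and 36.4 CPM in Kauai at day 7, against 3.32, 5.10 and 2.73 CPM in uninfested Kauai crickets, and 21.3, 24.7 and 50.8 CPM in Mangaia at day 7, against 8.55, 8.58 and 7.63 CPM in uninfested Mangaia crickets. The uninfested libraries did not overlap and those of day 7 did. It rose in both populations, by 3.29 in Kauai and 1.96 in Mangaia on the log2 scale, and the interaction of 1.32 (SE 0.489, adjusted p = 0.137 by edgeR's quasi-likelihood test) held a difference of 0.18 at day 7 and of -1.15 in uninfested crickets.

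A gene named PPO (MSTRG.17307), for prophenoloxidase, the inactive form of the enzyme, also had its larger population difference in uninfested crickets. Its CPM were 103.4, 111.6 and 121.6 in Kauai at day 7, against 22.1, 18.6 and 18.6 in uninfested Kauai crickets, and 131.6, 127.6 and 152.6 in Mangaia at day 7, against 36.6, 36.5 and 32.8 in uninfested Mangaia crickets. Kauai was below Mangaia without overlap at both stages. The interaction of 0.54 (SE 0.251, adjusted p = 0.225 by edgeR's quasi-likelihood test) was the gap between a difference of -0.29 at day 7 and of -0.83 in uninfested crickets (SE 0.18, adjusted p = 0.0811). Another gene named PPO, MSTRG.10136, had its larger difference at day 7. Its interaction was -0.19, with a difference of -0.56 at day 7 and of -0.37 in uninfested crickets. The most abundant member of the family, phenoloxidase 2-like MSTRG.7273, had the smallest interaction of it, -0.11 (SE 0.535, adjusted p = 0.925), with rises of 4.07 in Kauai and 4.18 in Mangaia. Its interaction was 0.25 with library size alone and from -0.42 to 0.27 over the left-out libraries. A further phenoloxidase 2-like gene, MSTRG.11188, had the largest in size, in the negative direction (adjusted p = 0.417), at 1.49 CPM or less in every library of the contrast. The phenoloxidase-activating factors, proteases that cut the inactive enzyme into its active form, had interactions of -0.33 and 0.05.

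Of the 7 signalling genes of the list, 1 was mainly from day 7, 3 mainly from uninfested levels, among them SUMO 3, and 3 from both. SARM1 (MSTRG.12613), an adaptor of Toll signalling in mammals, had 90.1, 49.1 and 110.3 CPM in Kauai at day 7, against 43.7, 38.4 and 37.1 CPM in uninfested Kauai crickets, and 49.5, 75.5 and 41.0 CPM in Mangaia at day 7, against 71.8, 51.6 and 49.4 CPM uninfested. The uninfested Kauai libraries were lower without overlap and those of day 7 reached into the Mangaia range. The interaction was 1.12 (SE 0.436, adjusted p = 0.154 by edgeR's quasi-likelihood test). Ral-a (MSTRG.4830), a small GTPase, had an interaction of 0.73 (adjusted p = 0.181), with a difference of 0.33 at day 7 and of -0.40 in uninfested crickets. SUMO 3 (TOG006749), a small protein that is attached to other proteins, had one of 0.56 (adjusted p = 0.225), with a difference of 0.18 at day 7 and of -0.38 uninfested. The rises of SARM1 and Ral-a in Kauai passed the test. In Mangaia the response of SARM1 was -0.06 (adjusted p = 0.896 by edgeR's quasi-likelihood test). Ral-a had a response of 0.57 there, which did not pass (adjusted p = 0.0572 by the same test). The rise of SUMO 3 passed in both populations. The interaction was positive in 5 of the signalling genes (4 with RLE size factors and 6 with library size alone).

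A pair of genes at the cell surface or of unknown function had the largest day 7 parts of the list. The adhesion G protein-coupled receptor A3 (MSTRG.21787) had 32, 35 and 38 read pairs in Kauai at day 7, against 16, 7 and 10 in uninfested Kauai crickets, and 5, 0 and 0 in Mangaia at day 7, against 13, 27 and 27 in uninfested Mangaia crickets. Its low group was Mangaia at day 7, where the receptor fell by 3.72 on the log2 scale (adjusted p = 0.0221), and the difference at day 7 was 4.30 (SE 1.10, adjusted p = 0.0445 by edgeR's quasi-likelihood test). The interaction was 5.14 (SE 1.42, adjusted p = 0.0639). An AGAP011476-PA-like protein (MSTRG.23335) had 44.6, 19.6 and 58.9 CPM in Kauai at day 7, against 11.3, 4.94 and 2.43 CPM in uninfested Kauai crickets, and 1.80, 9.95 and 3.16 CPM in Mangaia at day 7, against 12.1, 11.6 and 18.3 CPM uninfested. The populations did not overlap at either stage, and the interaction was 4.20 (SE 1.25, adjusted p = 0.0792), with a day 7 difference of 3.03 and an uninfested difference of -1.17. Syntaxin-5 (MSTRG.16898), a protein of vesicle transport, had an interaction of 0.92 (adjusted p = 0.169), of which 0.71 was the difference at day 7, with overlapping libraries at both stages.

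The metabolic and nuclear genes of the list held the 4 negative interactions at an unadjusted p under 0.05. RPC8 (MSTRG.15184), a subunit of RNA polymerase III, had 2.64, 2.78 and 1.58 CPM in Kauai at day 7, against 3.49, 5.74 and 7.73 CPM in uninfested Kauai crickets, and 4.16, 5.28 and 5.08 CPM in Mangaia at day 7, against 4.74, 4.22 and 4.43 CPM uninfested. Kauai at day 7 was the low group, and the interaction of -1.39 (SE 0.428, adjusted p = 0.0856 by edgeR's quasi-likelihood test) was mainly a day 7 difference of -1.05. SMYD5 (MSTRG.22129), a methyltransferase of proteins, had 10.5, 12.6 and 9.50 CPM in Kauai at day 7, against 11.3, 9.56 and 12.4 CPM in uninfested Kauai crickets, and 17.5, 22.7 and 18.4 CPM in Mangaia at day 7, against 12.0, 12.7 and 11.1 CPM uninfested. Here Mangaia at day 7 was the high group, with a rise of 0.71 (adjusted p = 0.0269) against -0.03 in Kauai, and the interaction was -0.74 (SE 0.319, adjusted p = 0.196).

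Cytochrome b5 (MSTRG.23133), an electron carrier, fell in both populations, to 0.278, 0.530 and 1.06 CPM in Kauai at day 7, against 7.97, 11.5 and 15.3 CPM in uninfested Kauai crickets, and to 1.52, 0.368 and 1.37 CPM in Mangaia at day 7, against 5.92, 4.50 and 4.58 CPM in uninfested Mangaia crickets. Its populations overlapped at day 7 and not in uninfested crickets, and the interaction was -1.97 (SE 0.795, adjusted p = 0.169 by edgeR's quasi-likelihood test). Adenosine deaminase (MSTRG.279), which breaks down adenosine, had 0, 0 and 1 read pairs in Kauai at day 7, against 8, 15 and 28 in uninfested Kauai crickets, and 1, 0 and 5 in Mangaia at day 7, against 3, 7 and 1 uninfested (interaction adjusted p = 0.0976). Phosphoacetylglucosamine mutase (TOG006979), an enzyme on the way to chitin, went the other way. It had 3.47, 2.78 and 3.43 CPM in Kauai at day 7, against 0.664, 1.59 and 1.06 CPM in uninfested Kauai crickets, and 2.91, 1.96 and 1.51 CPM in Mangaia at day 7, against 2.24, 3.41 and 2.75 CPM uninfested. Its interaction of 1.92 (SE 0.521, adjusted p = 0.0608) came mainly from an uninfested difference of -1.32, beside 0.60 at day 7.

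**Figure D4:**
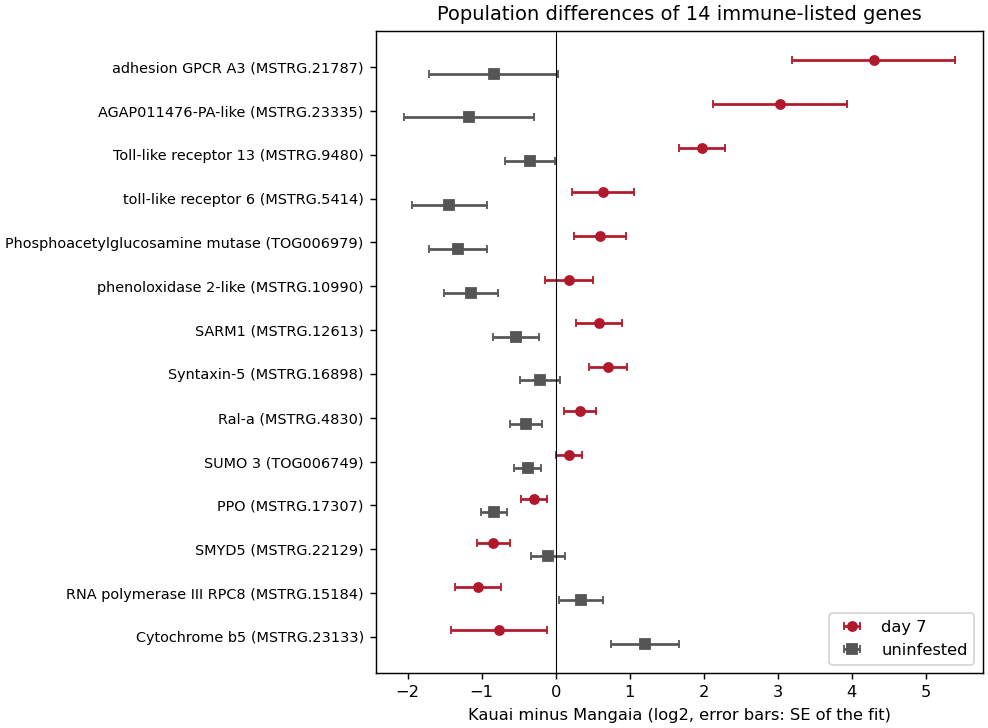
Kauai minus Mangaia difference (log2, x axis) at day 7 (red circles) and in uninfested crickets (grey squares), with the SE of the fit, for the 14 genes of the immune list that had an interaction at an unadjusted p under 0.05 and more than 3 read pairs in every group. The day 7 difference lies far from 0 and the uninfested one near it in Toll-like receptor 13 (1.97 and -0.35), and the reverse holds in phenoloxidase 2-like MSTRG.10990 (0.18 and -1.15).

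The other families of the list had no gene at that level. The peptidoglycan recognition proteins, sensors of bacterial cell walls, had interactions of -0.16 to 0.71, and Kauai was below Mangaia in uninfested crickets in all 3 (in 2 with RLE size factors). Among the 3 leucine-rich relatives of Toll-like receptors, a TLR4 interactor (MSTRG.872) had the largest interaction (adjusted p = 0.235 by edgeR's quasi-likelihood test). Its level was 0.972, 0.928 and 1.19 CPM in Kauai at day 7, against 0.166, 0 and 0 CPM in uninfested Kauai crickets, and 0.970, 1.11 and 3.29 CPM in Mangaia at day 7, against 0.921, 0.409 and 0.458 CPM uninfested. The 3 uninfested Kauai libraries together held 1 read pair of it.

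How many genes were called depended on single libraries, as the bars of calls by setting show. The interaction count was 0 without Kauai day 7 library 1, uninfested Kauai library 2 or 3, Mangaia day 7 library 1, uninfested Mangaia library 2 or 3, or Kauai day 4 library 1. It was 2 without Kauai day 7 library 3, 26 without uninfested Mangaia library 1, 218 without Mangaia day 7 library 3 and 317 without Mangaia day 4 library 3, and it was 939 without uninfested Kauai library 1 and 911 without Kauai day 4 library 2. Without both day 7 libraries least like their groups it was 0, a fit chosen after the data were seen. The lowest adjusted p of the full fit was 0.0335, close to the threshold, and 3740 to 6172 genes stayed at an unadjusted p under 0.05 in the fits with 1 library left out. Every gene of the 576 that could be fitted kept the sign of its interaction in all settings. Their median interaction stayed between 1.44 and 1.66, the median day 7 part between 0.81 and 0.94 and the median uninfested part between 0.53 and 0.74. By direction the parts moved further, with a median uninfested part of 0.71 to 1.07 in the genes more upward in Kauai and of 0.26 to 0.56 in those more downward, and a median day 7 part of 0.90 to 1.14 and of 0.72 to 0.92. These medians are over genes chosen in the full fit.

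**Figure D5:**
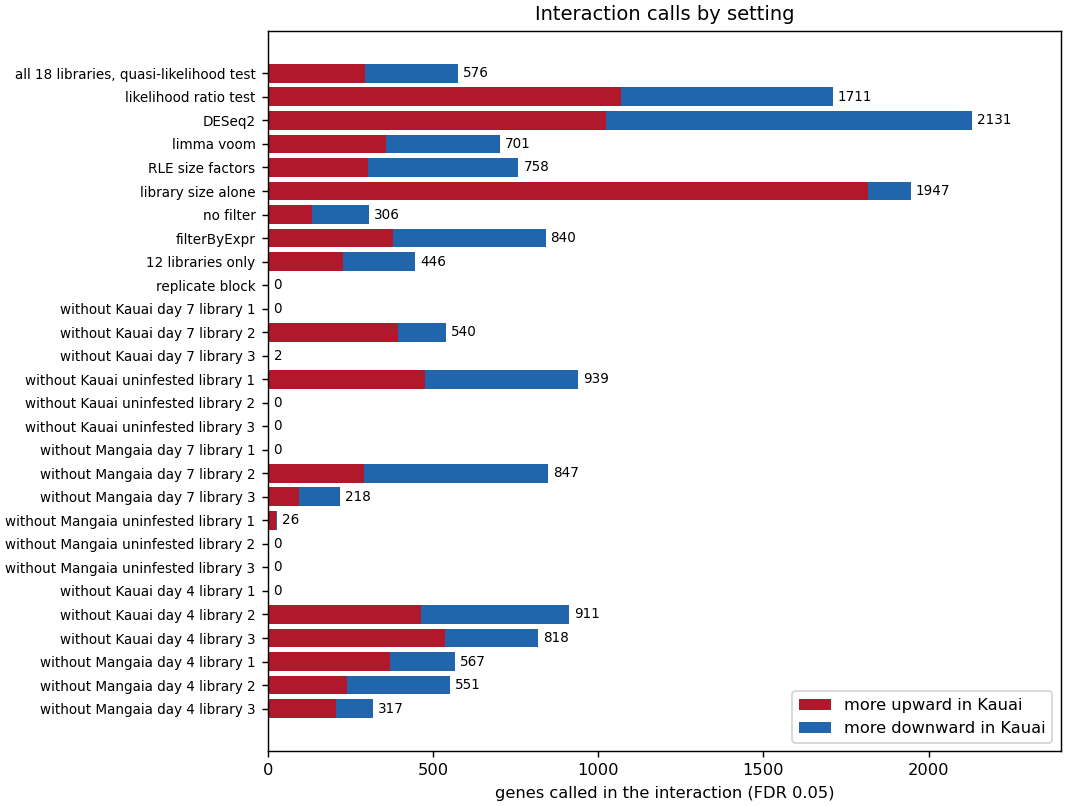
Number of genes called in the interaction (x axis, FDR of 0.05) under each setting, with genes more upward in Kauai in red and genes more downward in blue. The count was 576 in the full fit, 0 without any one of 7 libraries and 2131 by DESeq2, and with library size alone 1818 of 1947 genes were more upward in Kauai.

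The direction of the calls depended on the scaling of the libraries. RLE size factors gave 758 genes, with 302 more upward in Kauai. Library size alone gave 1947 genes, 1818 of them more upward, and the median interaction of all genes was then 0.39, against 0.05 with TMM. TMM factors were 1.03 to 1.15 in Kauai at day 7, against 0.846 to 0.927 in uninfested Kauai crickets, and 0.900 to 1.07 in Mangaia at day 7, against 0.970 to 1.05 in uninfested Mangaia crickets. In the 576 genes, the median uninfested part of the genes more downward in Kauai fell to 0.26 with library size alone, against 0.45 with TMM, and that of the genes more upward was 1.07, against 0.88.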

How the data were processed

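Counts of 18 RNA-seq libraries were used, 3 in each of 6 groups, of which 12 libraries formed the contrast. The authors trimmed the reads and aligned them to the cricket genome, and deposited raw counts of uniquely mapped read pairs for 32729 genes. The submitters' processing notes name Trimmomatic 0.33, STAR 2.5.3a and StringTie 1.3.4d. The count over both strands was taken (counts per strand had ratios of 1.003 to 1.009 within a library), and the 4 summary lines that name no gene were dropped. The genome itself was not used here, and no sequence is printed.

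A minimum of 1 CPM in 2 or more libraries left 23748 genes with 99.9% of the counts. Libraries were normalised by TMM, the 6 groups were fitted together with edgeR 4.0.16 in R 4.3.3 (negative binomial model, quasi-likelihood test), and genes were called at a Benjamini-Hochberg FDR of 0.05. A prior count of 2 was added for log2 CPM. Standard errors were taken from the fold change and the F statistic of the test. Group means farthest from the others were read from log2 CPM, and overlaps from CPM without logs. The steps were tested on simulated data.

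The alternatives were RLE size factors or library size alone as scaling, other filters (none, or filterByExpr), other tests (DESeq2 1.42.0, voom of limma 3.58.1 and edgeR's likelihood ratio test), the 12 libraries alone, the replicate number as a block, class ratios of 1.5 and 3, and leaving out each library. The genes, lists and rules were chosen with earlier results of these data known. Genes of the immune list were described where the interaction had an unadjusted p under 0.05, with the largest and smallest of a family besides. Of the unnamed genes with at least 10 CPM, the one with the largest interaction was named in each direction among those called at day 7 alone or in uninfested crickets alone.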

Additional observations from a re-analysis of the deposited data

Results flagged for a closer look

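The responses of Kauai and Mangaia at day 7 differed by the interaction test itself in 576 genes (edgeR's quasi-likelihood test). Among the genes described, the difference between the responses passed that test in Toll-like receptor 13 (MSTRG.9480, 2.32 on the log2 scale), MSTRG.9243 (3.10), MSTRG.1967 (4.21) and MSTRG.14947 (-3.12). Within the 12 libraries of the contrast, those that stood apart for MSTRG.9243 were the libraries of uninfested Kauai crickets. For Toll-like receptor 13 and MSTRG.14947 they were those of Kauai at day 7. Outside the contrast, day 4 libraries reached into the range of each of these groups. They were Kauai libraries for MSTRG.9243 and Toll-like receptor 13, and a Mangaia library for MSTRG.14947.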

How the results depend on the processing

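The interaction count of 576 genes was 1711 by the likelihood ratio test, 2131 by DESeq2, 701 by limma voom, 1947 with library size alone, 306 with no filter, 446 with the 12 libraries only and 0 with the replicate block, and 0 to 939 over the left-out libraries. The uninfested count of 10 was 513 by the likelihood ratio test, 656 by DESeq2, 374 with library size alone, 0 with the 12 libraries only, 3 with the block, 241 without both day 7 libraries least like their groups and 0 to 20 over the left-out libraries. The day 7 count of 839 was 2268 by the likelihood ratio test, 2610 by DESeq2, 134 with the block, 5 without both libraries and 18 to 1278 over the left-out libraries. The response of Kauai was called in 9487 to 12504 genes and that of Mangaia in 4309 to 7930 over the left-out libraries. The share of called genes put down mainly to day 7 (30.9%) was 49.1% at a ratio of 1.5, 17.4% at 3, 35.3% by DESeq2, 20.4% with library size alone and 3.85% to 100% over the 11 left-out libraries that gave calls. The 4 called genes that differed at day 4 became 72 by the likelihood ratio test, 124 by DESeq2, 9 by voom, 2 with filterByExpr, 0 with RLE size factors, with library size alone or with no filter, and 0 to 63 over the left-out libraries. Leaving out a library cost the calls of MSTRG.9243 and MSTRG.1967 in 8 of 18 fits each and that of MSTRG.14947 in 13. With the replicate block, MSTRG.9480, MSTRG.9243, MSTRG.1967 and MSTRG.14947 were not called (adjusted p of 0.0800, 0.0726, 0.0763 and 0.0890 by edgeR's quasi-likelihood test). The share mainly from uninfested levels (8.51%) was 17.4% with library size alone. The interaction of MSTRG.7273 turned to 0.25 with library size alone and ranged from -0.42 to 0.27 over the left-out libraries. Same-numbered libraries of different groups had deviations correlated from -0.514 to 0.262, with 3 of 18 pairs over 0.1, and equal numbers were therefore not read as pairs. The causes of these changes were not tested. With 3 pools per group, the median standard error of the interaction was 0.65 on the log2 scale, which limits what could be detected.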
